A study of Mus musculus with 3 samples.

Results

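The 7 genes described here encode CDK2, its 2 E-type cyclins and the proteins that switch the complex on or set how long it lasts: *Cdk2*, *Ccne1*, *Ccne2*, *Cdc25a*, *Skp2*, *Cks1b* and *Fbxw7*. They were chosen by name, with earlier results of these data known. Their Ensembl identifiers placed them in the count table, 7 of 50686 genes listed. The samples were 3 stable *Cdk6* KM/KM cell lines, grown from bone marrow cells of C57BL/6 mice homozygous for kinase inactive CDK6 (K43M) after retroviral transduction with BCR-ABL(p185). All 3 lines share the K43M allele and the oncogene, are labelled Pre/Pro-B-cells, and received no further treatment that the labels name. Wild type and knockout lines of the study were not analysed here, so the values are levels in K43M lines and differences between those lines, not effects of the allele. Poly(A) RNA was sequenced, 1 library per line, and differences between lines may be biological or technical.

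CDK2 bound to cyclin E phosphorylates the retinoblastoma protein and replication factors at the entry into S phase, a step that CDK4 and CDK6 with D-type cyclins begin earlier in G1. CDC25A removes the inhibitory phosphates from CDK2. Cyclin E is itself destroyed through FBXW7, a substrate receptor of the SCF ubiquitin ligase, while SKP2 with its cofactor CKS1B uses the same ligase to degrade the CDK2 inhibitor p27. Cyclin E and *Cdc25a* are classical targets of E2F transcription factors, which the retinoblastoma protein restrains.

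The kinase inactive allele changes the lysine that holds ATP in the active site, and CDK2 and CDK4 carry a lysine of the same role. The reference sequence around this codon is shown for the 3 kinases, since the allele changes the codon of *Cdk6* and leaves that of *Cdk2* as it is. Each run is 45 bases of coding sequence, 5′ to 3′, from Gencode M21 transcripts on mm10, with the lysine codon in capitals.
Cdk6: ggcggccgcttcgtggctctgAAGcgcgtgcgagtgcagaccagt
Cdk2: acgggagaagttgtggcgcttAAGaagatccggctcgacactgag
Cdk4: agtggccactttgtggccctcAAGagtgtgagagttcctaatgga
Codon 43 of *Cdk6* lies in exon 2 of 8, at chr5:3344493-3344495 on the plus strand. Codon 33 of *Cdk2* lies in exon 1 of 8, at chr10:128704729-128704731 on the minus strand, and codon 35 of *Cdk4* in exon 2 of 8, at chr10:127064338-127064340 on the plus strand. Reads were summed per gene, so the allele itself cannot be seen in these values. Over the whole coding sequences, 42.5% of the 346 CDK2 residues of the transcript used aligned to an identical residue of CDK6, against 68.6% of the 303 residues of CDK4. The 2 E-type cyclins shared 194 identical residues, 47.5% of the 408 of cyclin E1.

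The upstream sequences of 3 members are given as examples with the E2F word (*Cdk2* and *Cdc25a*) and without it (*Ccne1*). They are the first part of 300-base RefSeq windows on GRCm38.p6 around the annotated start, read 5′ to 3′ on the strand of the gene. Each is printed up to the base before the start or the first annotated exon, with an E2F word in capitals, while the words below were searched in the whole window.
Cdk2: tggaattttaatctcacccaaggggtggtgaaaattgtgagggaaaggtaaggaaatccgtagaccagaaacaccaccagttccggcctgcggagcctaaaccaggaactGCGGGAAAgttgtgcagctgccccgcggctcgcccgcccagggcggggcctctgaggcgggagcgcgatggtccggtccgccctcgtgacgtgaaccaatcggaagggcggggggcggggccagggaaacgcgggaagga
Cdc25a: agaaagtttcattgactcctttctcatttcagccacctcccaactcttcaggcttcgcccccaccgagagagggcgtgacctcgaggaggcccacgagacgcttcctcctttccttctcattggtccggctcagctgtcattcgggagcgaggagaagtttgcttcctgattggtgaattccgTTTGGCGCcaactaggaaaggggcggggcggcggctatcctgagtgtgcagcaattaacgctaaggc
Ccne1: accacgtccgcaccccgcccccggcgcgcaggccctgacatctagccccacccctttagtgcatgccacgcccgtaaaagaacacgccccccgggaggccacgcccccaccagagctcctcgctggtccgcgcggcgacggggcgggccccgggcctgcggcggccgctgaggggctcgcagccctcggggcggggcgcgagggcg
The *Cdk2* stretch spans chr10:128705052-128705301 on the minus strand, that of *Cdc25a* chr9:109875329-109875578 on the plus strand and that of *Ccne1* chr7:38107535-38107740 on the minus strand. The words searched, on both strands, were TTTGGCGC, TTTCGCGC, TTTCCCGC and TTTGCCGC for E2F, CCAAT for NF-Y, GGGCGG for the GC box and GCATGCGC for NRF1. An E2F word was present in 2.26% of 32851 windows of the same length, in the windows of *Cdk2* and *Cdc25a*, and in no other of the 9 windows that 6 members had. The *Cdk2* match reads on the opposite strand. A CCAAT word was present in 37.4% of all windows and in 4 of the 9, and a GC box in 35.7% of all windows and in 7 of the 9. The NRF1 word was in 2.71% of all windows and in 0 of the 9. These matches describe letters and not bound sites, and the 4 GC boxes of the *Ccne1* window, of which the last runs past the printed part, were its only matches. *Ccne2* had no window, and other spellings of a site were not searched. A link between these words and the differences between lines was not tested.

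The libraries held 21569845, 19633463 and 25773221 counts in lines 1, 2 and 3. A count of 0 allows up to 3 counts, which is between 0.116 and 0.153 CPM (a gene's counts per 1000000 counts of its library), and all members lay far above that limit. All 8 markers of B-lymphoid precursors reached 1 CPM in every line, and summed to between 3577 and 3962 CPM. The 3 T cell markers were at 0 in every line, the 4 myeloid markers summed to between 1.75 and 3.93 CPM, highest in line 3, and the 3 erythroid markers to at most 0.322 CPM. Their part in the differences below was not tested.

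*Cdk2*, the kinase, was abundant and varied little. It (ENSMUSG00000025358.16, chr10:128697939-128705031, minus strand) was read 3193, 3117 and 4274 times, or 147, 158 and 168 CPM in lines 1, 2 and 3 after TMM scaling of the libraries, a mean of 158 ± 10.3 CPM (SD, n = 3). Line 1 was lowest and line 3 highest, 1.14-fold apart. The lines differed by more than counting noise (chi-square homogeneity test with Benjamini-Hochberg adjustment over the 13974 genes with at least 10 counts, adjusted p = 3.56e-07). With a fixed dispersion of 0.01 allowed between lines on top of counting noise, the same difference did not pass (edgeR likelihood ratio test, adjusted p = 0.872). In bulk RNA a change in the number of cycling cells and in the RNA per cell cannot be told apart.

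The E-type cyclins differed from each other in how they varied. *Ccne1* (ENSMUSG00000002068.16, chr7:38097984-38107534, minus strand), the cyclin that activates CDK2 at the G1/S boundary, was read 1342, 1236 and 2596 times, or 61.8, 62.6 and 101.9 CPM (75.5 ± 22.9 CPM, SD, n = 3). Lines 1 and 2 were alike, and line 3 stood 1.64-fold above their mean. The 95% exact Poisson intervals, 58.6 to 65.2 and 59.2 to 66.2 CPM in lines 1 and 2, did not reach that of line 3, 98.0 to 106 CPM, and cover counting error only. This was the largest difference among the members (chi-square homogeneity test with Benjamini-Hochberg adjustment, adjusted p = 2.06e-69), and *Ccne1* was the one member that passed with a dispersion of 0.01 (edgeR likelihood ratio test, adjusted p = 0.00208). Without line 3, its range fell from 0.71 to 0.01 on the log2(CPM + 1) scale and did not pass (adjusted p = 0.863, chi-square homogeneity test with Benjamini-Hochberg adjustment).

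*Ccne2* (ENSMUSG00000028212.16, chr4:11191351-11204779, plus strand), the second E-type cyclin, was read 1603, 1648 and 2043 times, or 73.8, 83.5 and 80.2 CPM (79.2 ± 4.90 CPM, SD, n = 3). Line 2 was highest and line 1 lowest, a 1.13-fold difference, and line 3, the high line for *Ccne1*, lay between them. The lines differed beyond counting noise (chi-square homogeneity test with Benjamini-Hochberg adjustment, adjusted p = 0.00311), but not without line 1 (adjusted p = 0.305) nor without line 2 (adjusted p = 0.0624) by the same test. Exons of *Ints8*, on the opposite strand, cover 609 bases or 17.4% of the *Ccne2* exons. *Ints8* was read 2055, 2191 and 2977 times, more often than *Ccne2* in every line. The strand setting of the counting is not given in the sources used here. For which gene, if any, reads in the shared bases were counted is thus not known, and the *Ccne2* level is uncertain to that extent.

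*Cdc25a* (ENSMUSG00000032477.13, chr9:109875579-109893895, plus strand), the phosphatase that activates CDK2, was read 3187, 2986 and 4247 times, or 147, 151 and 167 CPM (155 ± 10.4 CPM, SD, n = 3). Line 3 was highest and lines 1 and 2 were close, with 1.14-fold between the extremes. The difference exceeded counting noise (chi-square homogeneity test with Benjamini-Hochberg adjustment, adjusted p = 1.61e-07), and without line 3 it did not (adjusted p = 0.403 by the same test). *Cdc25a* and *Ccne1* were thus both highest in line 3, but *Cdc25a* by 1.12-fold over the mean of the other lines and *Ccne1* by 1.64-fold.

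*Skp2* (ENSMUSG00000054115.11, chr15:9111985-9155425, minus strand), the F-box protein that targets p27, was read 1593, 1565 and 1771 times, or 73.4, 79.3 and 69.5 CPM (74.1 ± 4.91 CPM, SD, n = 3). Line 3 was lowest, the reverse of *Ccne1*, *Cdc25a* and *Cdk2*, and line 2 was 1.14-fold above it. The lines differed beyond counting noise (chi-square homogeneity test with Benjamini-Hochberg adjustment, adjusted p = 0.00143), but not without line 2 (adjusted p = 0.0931) nor without line 3 (adjusted p = 0.0719) by the same test.

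*Cks1b* (ENSMUSG00000028044.6, chr3:89415472-89418383, minus strand), the small CDK-binding cofactor of SKP2, was read 3234, 2929 and 3814 times, or 148.99, 148.4 and 149.7 CPM (149.03 ± 0.678 CPM, SD, n = 3). The lines were nearly equal, with 1.01-fold between the extremes, and no difference beyond counting noise was detected (chi-square homogeneity test with Benjamini-Hochberg adjustment, adjusted p = 0.945). *Cks1b* shares 62 of its 800 50-base stretches, 7.75%, with *Cks1brt* and the pseudogene *Gm6340*, and *Cks1brt* had 0, 2 and 0 counts.

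*Fbxw7* (ENSMUSG00000028086.15, chr3:84815268-84979198, plus strand), the receptor that sends cyclin E to degradation, was read 811, 739 and 1001 times, or 37.4, 37.4 and 39.3 CPM (38.0 ± 1.10 CPM, SD, n = 3). It was the member with the fewest reads, and its lines did not differ beyond counting noise (chi-square homogeneity test with Benjamini-Hochberg adjustment, adjusted p = 0.532). The 1.65-fold step in *Ccne1* RNA stood beside a 1.05-fold spread in *Fbxw7* RNA. FBXW7 acts on cyclin E protein, which was not measured, and a link between these RNA levels was not tested.

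**Figure D1:**
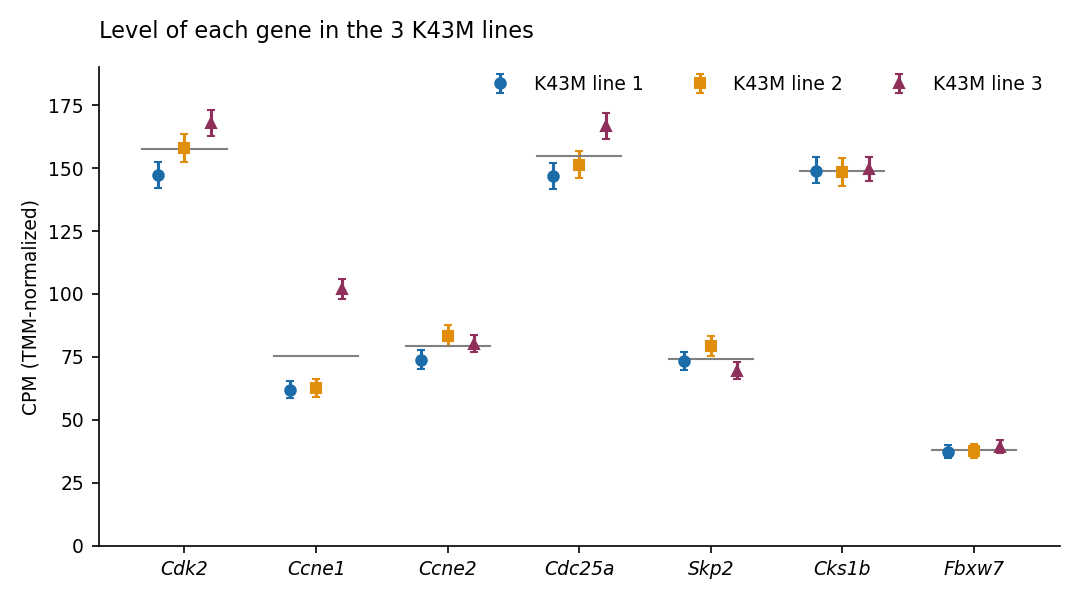
Level of each of the 7 genes in the K43M lines, in CPM after TMM scaling. Each point is 1 line with its 95% counting interval and the horizontal bar is the mean of the 3 lines. *Ccne1* in line 3, at 101.9 CPM, stands apart from 61.8 and 62.6 CPM in lines 1 and 2, while the *Cks1b* points coincide.

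Of the 7 members, 5 differed between lines beyond counting noise, where 66.8% of the 13974 genes tested did, and 80.1% of the 9389 genes with a mean of at least 5 CPM. With a dispersion of 0.01, 1 of 7 passed (edgeR likelihood ratio test), against 24.1% of all genes tested. The median range between lines over the members was 0.18 on the log2(CPM + 1) scale, against 0.32 over all genes tested and 0.29 over those with at least 5 CPM. Among the latter, 16.2% had a range at least as large as *Ccne1*, between 69.5% and 72.6% one as large as *Cdk2*, *Skp2*, *Cdc25a* or *Ccne2*, 94.1% one as large as *Fbxw7*, and 99.7% one as large as *Cks1b*. *Ccne1* thus lay above the median range of these genes and the other 6 members below it. Without line 3, 2 of 7 members passed the chi-square test, *Cdk2* and *Ccne2*, against 47.1% of the genes tested. Without line 2, 3 of 7 passed, *Cdk2*, *Ccne1* and *Cdc25a*, against 54.5%, and without line 1, 4 of 7 passed, against 54.3%.

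**Figure D2:**
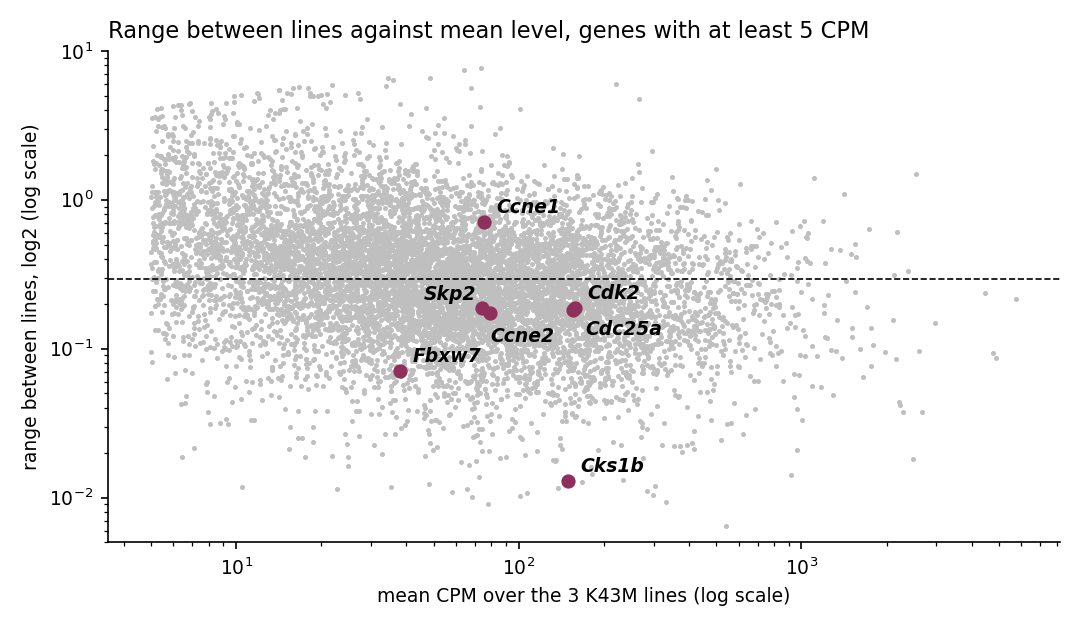
Range between the 3 lines (highest minus lowest log2(CPM + 1), log axis) against the mean level (CPM, log axis) for the genes with at least 5 CPM. Grey points are all genes, except 7 outside the axis of the range, the dashed line is their median, and the 7 members are coloured. *Ccne1* lies above the median and the other 6 below it.

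Of the 7 members, 3 differed and were highest in line 3 (*Cdk2*, *Ccne1* and *Cdc25a*), 2 in line 2 (*Ccne2* and *Skp2*) and 0 in line 1. Over all genes tested, 26.2% differed and were highest in line 3, 20.6% in line 2 and 20% in line 1. Of the members, 4 differed and were lowest in line 1, against 23.7% of all genes tested. All members had a mean above 5 CPM. Among genes with at least 5 CPM, 28.3% differed and were lowest in line 1, and 25.3% differed and were highest in line 2. In log2(CPM + 1), relative to the mean of the lines, *Ccne1* was at -0.24, -0.23 and 0.47, *Cdc25a* at -0.07, -0.03 and 0.11 and *Cdk2* at -0.10, 0.00 and 0.09 in lines 1, 2 and 3. *Skp2* was at -0.01, 0.10 and -0.09 and *Ccne2* at -0.10, 0.08 and 0.02, so the members did not follow a single order of lines.

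**Figure D3:**
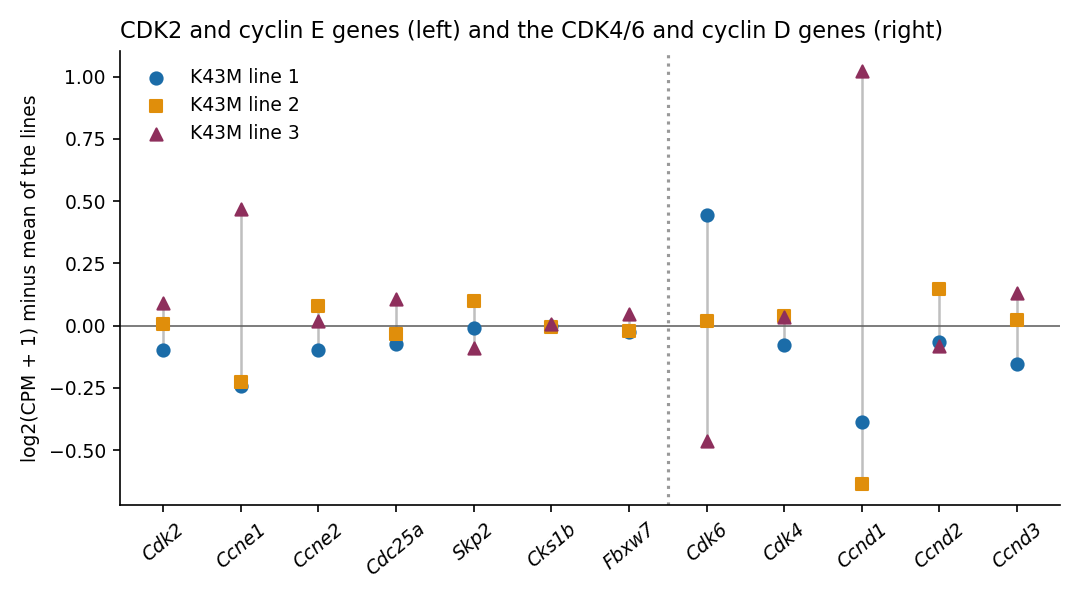
Deviation of each gene from its mean over the lines, in log2(CPM + 1), with 1 point per K43M line, for the 7 members left of the dotted line and the CDK4/6 and cyclin D genes right of it. Among the members, line 3 lies above the other lines for *Cdk2*, *Ccne1*, *Cdc25a*, *Cks1b* and *Fbxw7*, and line 2 for *Ccne2* and *Skp2*, although *Cks1b* and *Fbxw7* did not differ beyond counting noise.

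The genes surrounding a member on its chromosome sometimes moved with it. The median deviation of the 54 genes within 5 Mb of *Cdk2* was -0.08, -0.01 and 0.07 in lines 1, 2 and 3, a range of 0.14 in the same order as *Cdk2*, whose own range was 0.19. Near *Skp2* the 28 neighbours had medians of 0.01, 0.07 and -0.06, again in the order of the gene. Near *Ccne1* the 25 neighbours stayed between -0.01 and 0.02, and the 105 neighbours of *Cdc25a* had a range of 0.02. Near *Ccne2* the neighbours had medians of 0.02, -0.04 and 0.05, lowest in line 2, where *Ccne2* was highest. The neighbours of *Cks1b* and *Fbxw7*, which did not differ beyond counting noise, had ranges of 0.07 and 0.05. The part of the surroundings in the differences of these genes was not tested.

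Levels were compared between genes only per length, in TPM, which divides counts by the merged exon length of each gene and scales every line to the same total. *Cks1b* was highest, at 509 ± 9.85 TPM (SD, n = 3), and *Ccne1* followed at 108 ± 30.1, *Cdk2* at 97.3 ± 4.86, *Ccne2* at 87.1 ± 5.79 and *Cdc25a* at 74.1 ± 3.37 TPM. *Skp2*, at 36.2 ± 3.17, and *Fbxw7*, at 20.7 ± 0.144 TPM, were lowest. *Ccne1* and *Cdk2* overlapped over the lines, *Ccne1* being above *Cdk2* in 1 of 3 lines. *Cdk2* and *Ccne2* also overlapped, although *Cdk2* was above in each line, and the other neighbours in this order did not overlap. With the length of the main transcript in place of merged exons, *Cdk2* rose to 164 and *Cdc25a* to 107 TPM, both above *Ccne1* at 94.0 TPM. *Cdc25a* and *Ccne1* then overlapped over the lines, *Cdc25a* being above in 2 of 3, and *Ccne2* and *Skp2* overlapped too. In this order 3 of 7 members kept their rank. *Cks1b* stayed highest and *Skp2* and *Fbxw7* lowest with either length.

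**Figure D4:**
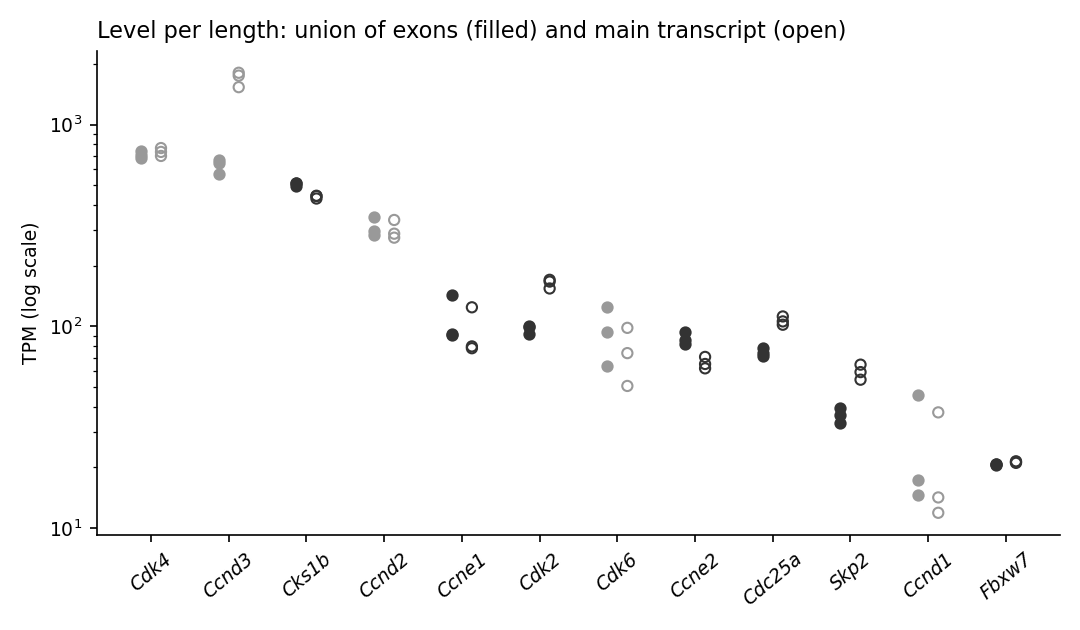
Level per length in TPM on a log axis, with 1 point per K43M line, for the members (black) and the CDK4/6 and cyclin D genes (grey). Filled points use merged exon lengths and open points the main transcript length. With merged exons, *Cks1b* reaches 509 TPM on average and *Fbxw7* 20.7 TPM, and *Cdk2* and the E-type cyclins lie between 87.1 and 108 TPM.

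The CDK2 arm was set beside the CDK4/6 arm in each line. *Cdk2* made up 10.2%, 10.6% and 11.5% of the summed *Cdk2*, *Cdk4* and *Cdk6* TPM in lines 1, 2 and 3, and 16.2%, 16.6% and 17.8% with main transcript lengths. With merged exons *Cdk4* made up 75.9%, 79.4% and 81.1%. *Cdk6* itself, transcribed from the K43M allele, was at 449.5, 334 and 239 CPM, highest in line 1 and lowest in line 3. The 12 genes within 5 Mb of *Cdk6* had median deviations of 0.24, -0.03 and -0.26 in log2(CPM + 1), in the same order, and their part in the *Cdk6* difference was not tested. The ratio of *Cdk2* to *Cdk6* per length was 0.736, 1.06 and 1.58, and with main transcript lengths 1.57, 2.26 and 3.36. The ranking of the lines was the same with either length, but whether *Cdk2* exceeded *Cdk6* in line 1 was not.

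Cyclin E took 16.3%, 15.5% and 18.7% of the summed D- and E-type cyclin TPM, and 7.08%, 6.67% and 8.20% with main transcript lengths. With merged exons *Ccne1* made up 52.4%, 49.6% and 62.5% of cyclin E, about equal to *Ccne2* in lines 1 and 2 and ahead in line 3. With main transcript lengths its share was 55.7%, 53.0% and 65.6%, ahead of *Ccne2* in every line. The exons that *Ccne2* shares with *Ints8* leave these shares uncertain. *Ccnd1*, a D-type cyclin, was also highest in line 3, at 21.1, 17.5 and 57.4 CPM. So was *Ccnd3*, the most abundant D-type cyclin, at 1286, 1456 and 1566 CPM. *Ccnd2* was at 723, 839 and 714 CPM, highest in line 2 and lowest in line 3. The ratio of *Skp2* to *Fbxw7*, the receptors that act on p27 and on cyclin E, was 1.76, 1.89 and 1.58 per length. With main transcript lengths it was 2.82, 3.04 and 2.54. The ratio was lowest in line 3, where *Ccne1* was highest. These are RNA levels, whereas the receptors act on proteins, and a link was not tested.

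Genes outside the members were searched for the *Ccne1* pattern by the distance between log2(CPM + 1) deviations over the 3 lines. Of 9388 genes compared, *Rrm2* was closest, at 301, 304 and 495 CPM and a distance of 0.00498. *Rrm2* encodes the small subunit of ribonucleotide reductase, which makes deoxynucleotides for S phase. *Coq10b*, at 7.42, 7.55 and 12.7 CPM, and *Zfp446*, at 18.2, 18.2 and 30.4 CPM, followed, at distances of 0.00819 and 0.0113. In all, 64 genes lay within 0.1 of the *Ccne1* pattern and 481 of 9389 genes were at least 1.5-fold higher in line 3 than in both other lines, so such a step was not rare. With 3 lines the likeness rests on 3 values per gene and is a description.

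The other genes of the pathway were described by role. Of 62 listed, 59 had at least 10 counts and 52 of these differed between lines beyond counting noise, where 66.8% of all genes tested did. At a mean of at least 5 CPM the count was 51 of 57, against 80.1% of all such genes. The counts by role below are to be read against that share. They also include *Cks2* and *Usp2*, which lay below it at means of 3.86 and 0.898 CPM, and of which only *Cks2* differed. With a dispersion of 0.01, 5 passed (edgeR likelihood ratio test, 24.1% of all genes tested): *Mnat1*, *Cks2*, *Cdkn1b*, *E2f5* and *E2f7*, of which *Cks2* and *E2f5* are named after their values were seen. The median range of the 59 was 0.30 in log2(CPM + 1), against 0.18 over the members.

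Among the partners of CDK2 and its activating kinase, 7 of 7 genes tested differed beyond counting noise. *Ccna2*, cyclin A2, which takes over CDK2 in S phase, was at 464, 471 and 435 CPM and was the most abundant per length, at 430 TPM. *Mnat1*, the assembly factor of the CDK-activating kinase, was at 33.1, 31.5 and 16.6 CPM, lowest in line 3 and 2.00-fold between extremes. The 48 genes around *Mnat1* were shifted in the same lines, with medians of 0.24, 0.26 and -0.52 on the log2(CPM + 1) scale, and their part in the *Mnat1* difference was not tested. *Cks2*, the paralog of *Cks1b*, was at 2.63, 6.13 and 2.83 CPM, far below *Cks1b*. It shares 29.7% of its 50-base stretches with 3 pseudogenes, so its level is uncertain.

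Of the brakes on CDK2, 4 of 4 tested differed beyond counting noise. *Cdkn1b*, which encodes the p27 that SKP2 removes, was at 20.2, 35.6 and 27.8 CPM, highest in line 2, where *Skp2* was highest too. These are RNA levels, and p27 protein was not measured. *Wee1*, the kinase that places the inhibitory phosphate that CDC25A removes, was at 58.6, 67.4 and 71.1 CPM, lowest in line 1.

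Of the ubiquitin ligase genes, 8 of 11 differed beyond counting noise. Among the 11, 3 differed and were highest in line 3, against 26.2% of all genes tested, and 4 differed and were lowest there. *Skp1a*, the adaptor that joins F-box proteins to the ligase, was at 185, 180 and 220 CPM. *Usp28*, a deubiquitinase that opposes FBXW7, was at 37.7, 42.4 and 53.6 CPM. Both were highest in line 3, the line with most *Ccne1* RNA. Their products act on proteins, and their part in the *Ccne1* level was not tested. Checkpoint kinases differed in 6 of 6 genes, with *Plk1*, the mitotic kinase, at 171, 169 and 180 CPM and *Atr*, the replication stress kinase, at 131, 113 and 89.6 CPM, lowest in line 3.

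Of the pocket protein and E2F genes, 10 of 13 differed beyond counting noise, near the 80.1% of all genes with at least 5 CPM. Of the 13, 8 differed and were lowest in line 1, against 28.3% of all such genes. In line 3, 6 of the 13 differed and were highest, against 26.2% of all genes tested, and 1 differed and was lowest. *E2f4*, a repressor E2F, was most abundant at 263, 277 and 301 CPM. *E2f7*, an atypical repressor, was at 39.6, 45.7 and 24.5 CPM, and was the 1 gene that differed and was lowest in line 3.

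All 14 CDK2 substrates and S phase entry genes differed beyond counting noise, where 80.1% of all genes with at least 5 CPM did. Their median range in log2(CPM + 1) was 0.27, below the 0.29 over all genes with at least 5 CPM. With a dispersion of 0.01, 0 of 14 passed (edgeR likelihood ratio test), against 24.1% of all genes tested. The 14 were chosen with earlier results of these data known. Of them, 12 were highest in line 2 and 11 lowest in line 1, against 25.3% and 28.3% of genes with at least 5 CPM. *Rag1*, a recombinase gene among the B-lymphoid precursor markers, was also highest in line 2, at 22.4, 91.4 and 32.4 CPM, and its part in this was not tested. The exceptions to line 2, named after their values were seen, were *Npm1*, highest in line 1, and *Cdc45*, highest in line 3. *Cdt1*, the licensing factor that loads the MCM helicase, had the largest range, at 81.8, 110 and 98.2 CPM. *Npm1*, a CDK2 substrate at the centrosome, was most abundant, at 1174, 1104 and 1132 CPM. These genes were thus mostly highest in another line than *Ccne1*.

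Of the other substrates of FBXW7, 3 of 4 differed beyond counting noise. *Myc*, a transcription factor, was at 715, 659 and 553 CPM, lowest in line 3, and *Jun*, an AP-1 factor, at 11.6, 17.0 and 15.6 CPM. Neither had the order of *Ccne1* RNA. *Notch1* had that order, at 82.2, 84.7 and 108 CPM, and differed beyond counting noise. *Mcl1* had it at 200, 207 and 211 CPM and did not differ. *Notch1* and *Mcl1* are named after their values were seen, and the proteins on which FBXW7 acts were not measured.

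**Figure D5:**
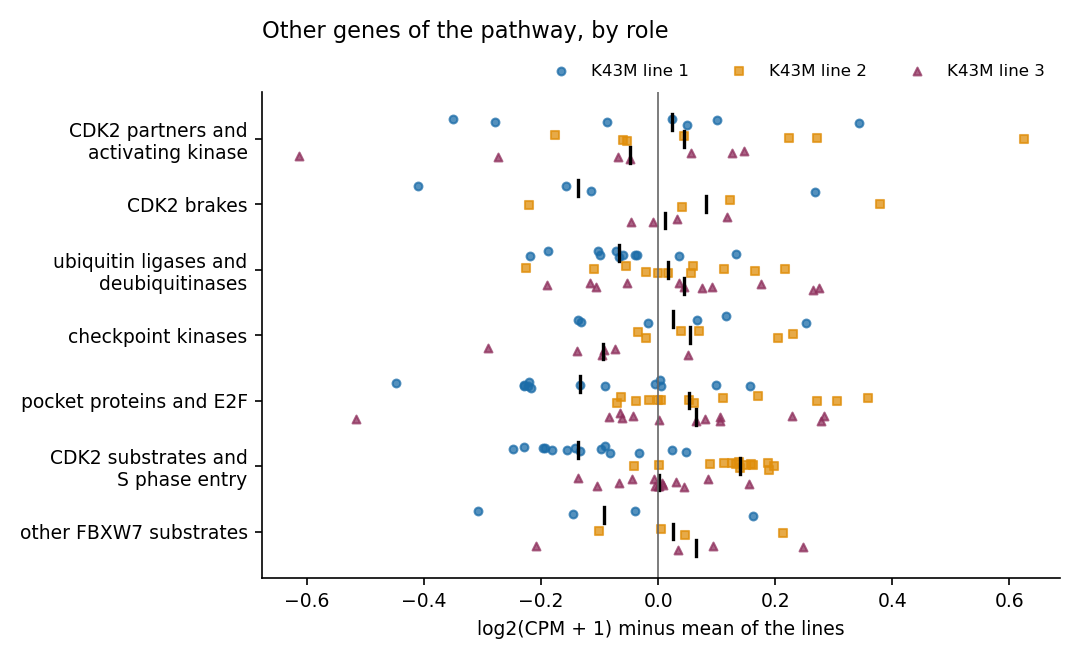
Deviation of the other pathway genes from their mean over the lines, in log2(CPM + 1), by role. Each symbol is 1 gene in 1 K43M line and the black bars are the medians of the lines. The S phase entry genes of line 2 lie mostly to the right of 0 and those of line 1 to the left.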

How the data were processed

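Poly(A) RNA of 3 *Cdk6* KM/KM BCR::ABL1+ lines was sequenced. The authors trimmed reads with Trimmomatic, used STAR for alignment to mm10, and counted reads on Gencode M13 exons with featureCounts. The deposited values are raw counts. The study's methods name a TruSeq kit, whereas the labels name a SENSE kit with single-end reads. Another 6 columns of the table were left out. Of 50686 genes, 50462 matched Gencode M21, used for symbols, coordinates and lengths.

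Counts were scaled by TMM in edgeR 4.0.16 (R 4.3.3). Genes needed at least 10 counts in total, and the 13974 that had them were tested by chi-square homogeneity of the counts, with Benjamini-Hochberg adjustment at 0.05. This compares libraries, not conditions, and its p-values measure counting noise. An edgeR likelihood ratio test with the dispersion set to 0.01 was the strict alternative. Scaling was changed to size factors from DESeq2 1.42.0 or to total counts. The filter was dropped, or 10 counts were required of each line. Other changes were a pseudocount of 0.1 instead of 1 CPM, main transcript lengths and dropping each line. Intervals are 95% exact Poisson intervals of the counts. Reads without molecular identifiers are not independent molecules, so intervals cover counting error only. Sequence work used Python 3.11.15.

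Members and lists were chosen with earlier results of these data known. Named are the members, CDK4/6 and D-type cyclins, from each role the gene highest per length and, at a mean of at least 5 CPM, the one with the largest range, the 3 genes most like *Ccne1*, and genes sharing exons or stretches.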

Additional observations from a re-analysis of the deposited data

How the results depend on the processing

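The difference between lines depended on the noise allowed. With a dispersion of 0.01, 3364 genes, 1 member and 5 other pathway genes passed, against 9341, 5 and 52 by chi-square. With 1 line left out, between 6098 and 7267 genes, 2 and 4 members and 39 and 41 pathway genes passed. Without line 3, 6098 genes and 2 members passed, and *Ccne1* was not among them; without line 2, 3 members passed. With all lines kept, 38 of 42 comparisons of a member's range kept their side of the threshold, and the 4 that lost it were *Cdk2*, *Ccne2*, *Cdc25a* and *Skp2* with the dispersion (adjusted p between 0.868 and 0.891, edgeR likelihood ratio test). The 42 include the change of pseudocount, which does not enter the test and so could not lose the threshold. With a line left out, 15 of 21 comparisons kept their side. All 35 alternative mean levels stayed within 1 SD. With 3 lines, a mean with a line left out could hardly do otherwise, so those comparisons do not test stability. Reversals numbered 0, and could be counted only where a member's highest and lowest lines were both kept. Ranks per length held for 3 of 7 members with main transcript lengths and for 5 to 7 of 7 with a line left out. No paired analysis was possible because the lines form 1 group. With 1 group, no effect of the allele can be computed.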
